A study of Mus musculus with 60 samples.

Results

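Cdh1, Cdh3 and Itgb1 are 3 cell adhesion genes of mouse chromosome 8, followed here through all 60 libraries of an allele-specific RNA-seq series that lists 14003 genes in its 52 libraries with an assigned group. The 3 genes were chosen by their measured Cast share and read counts in clones with an inducible Xist transgene on an X;8 translocation product. The change in those clones upon doxycycline is therefore given as a description, without a test. Chromosome 8 holds 743 of the listed genes, 483 of them distal to 70 Mb, where all 3 genes lie.

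Female embryonic stem cells (ESCs) from a cross of 129/Sv and Cast/Ei mice carried Xist under a doxycycline-responsive promoter. Untreated cells were compared with cells kept in doxycycline for 5 days. The Cast share of a gene is the fraction of its allele-specific reads that match the Cast/Ei genome. The total level is the number of reads counted on the gene scaled to counts-per-million (CPM) over all listed genes of the library.

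Clones 203b, 267 and 339 form the Tg-X;8 group (40,XX,t(X;8)). They hold the transgene on the translocation product that joins the 129 X to part of a Cast chromosome 8. It thus lies in cis to an extra Cast copy of all 3 genes. The site is in the chromosome 8 part in clones 203b and 267 and undetermined in clone 339. The 4 Tg-X clones (85, 86, 109 and 190) have the same t(X;8) karyotype and extra copy. They hold the transgene on the other X, the wild-type Cast/Ei one, which is not joined to chromosome 8. The Tg-12 clones 228, 273, 160 and 38 (41,XX,dup12) hold it on chromosome 12, and clone 38 is a line of clone 55. The Tg-E clones 87 and 68 (40,XX) hold it at the endogenous Xist locus. Each clone is 1 cell line and gave a pair of untreated and a pair of treated libraries. The exceptions are clone 203b, treated in 1 library, and clone 68, which was sequenced in 1 treated library alone. The study calls the libraries of a clone biological replicates, without saying here how they were grown, and p-values measure the spread between such libraries or between clones. Clone 160 is labelled as a chromosome X clone in the deposited labels and as Tg-12 in the study's list of clones. Clones 267 and 160 also carry a Tsix-Stop allele on the 129 X.

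Cdh1 encodes E-cadherin, the calcium-dependent adhesion molecule that joins ESCs and epithelial cells to each other and is linked through catenins to actin. Cdh3 encodes P-cadherin, a close relative of E-cadherin that is expressed in placenta and in basal epithelial layers. Itgb1 encodes integrin beta1, which pairs with many alpha chains to form receptors for laminin, fibronectin and collagen. Xist is the non-coding RNA that coats the chromosome it is transcribed from and silences genes in cis.

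In the GRCm38 annotation Cdh3 lies at chr8:106510852-106556911 and Cdh1 at chr8:106603350-106670247, both on the plus strand and separated by 46.4 kb. Itgb1 lies at chr8:128685654-128733579 on the plus strand, with its start 22.1 Mb distal to that of Cdh1. Each gene has 16 exons in RefSeq, and no other annotated gene overlaps any of them. The exon that the deposited files name for each gene is mostly exon 16, the last, which holds the end of the coding sequence and the 3′ untranslated region. For Cdh3 another exon was named in 2 libraries, the second treated one of clone 109 and the second untreated one of clone 86. The transgene of clone 267 lies 3.66 Mb from Cdh1, 3.77 Mb from Cdh3 and 18.0 Mb from Itgb1. That of clone 203b lies 15.7 Mb from Cdh1, 15.8 Mb from Cdh3 and 6.34 Mb from Itgb1. The site in clone 339 was not determined by the study.

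Of the 3 genes, RefSeq's promoter table (GRCm38.p6) holds 1, Itgb1. The 250 bases before its start, chr8:128685404-128685653 on the plus strand, are shown because Itgb1 was the member that was lower in all 3 Tg-X;8 clones in both share and total level. Capitals mark a GC box (GGGCGG, or CCGCCC on the other strand), a motif bound by Sp1 and related factors.

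Itgb1: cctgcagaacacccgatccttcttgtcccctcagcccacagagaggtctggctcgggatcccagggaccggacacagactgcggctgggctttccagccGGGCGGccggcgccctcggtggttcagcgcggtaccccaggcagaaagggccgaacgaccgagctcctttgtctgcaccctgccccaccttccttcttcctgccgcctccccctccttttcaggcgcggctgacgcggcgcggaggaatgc

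The window has a GC content of 68% and 1 match, and 32.7% of the 32851 promoters in the table hold at least 1 match in the same window.

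The allele-specific reads per ESC library numbered from 731374 to 5830149. Cdh1 had a median of 1194 allele-specific reads per ESC library (552 to 3102), Itgb1 had 426 (162 to 1092) and Cdh3 had 70 (10 to 421). Cdh3 was not listed in the second untreated library of clone 203b. Intervals given for single shares are 95% Wilson intervals and cover counting error only. In the untreated t(X;8) clones the median Cast share of genes distal to 70 Mb was 0.651 to 0.671 per library, against 0.489 to 0.516 for the proximal genes. Untreated clone 160 had the same pattern (0.653 and 0.662 distal, 0.512 and 0.517 proximal). Untreated clones 228, 273 and 38 were at 0.656 to 0.667 distal and at 0.667 to 0.683 proximal. Only clones 87 and 68 were near 0.5 in both parts, so the clones without the translocation are not all a control for the copy number of these genes.

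Levels are compared between the genes per kb of exon. In untreated ESC clones Cdh1 stood at 108 ± 26.7 CPM per kb (SD, n = 12 clones), Itgb1 at 72.4 ± 23.6 and Cdh3 at 6.74 ± 1.88. Cdh1 was the most abundant of the 3 and Cdh3 the least.

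Cdh1 was the member with the largest loss of Cast share in a Tg-X;8 clone. In clone 339 the untreated libraries had Cast shares of 0.763 (interval 0.747 to 0.778) and 0.768 (0.748 to 0.787). The treated libraries had 0.636 (0.608 to 0.664) and 0.626 (0.602 to 0.65). The intervals of untreated and treated libraries did not overlap.

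In clone 267 the untreated Cast shares of Cdh1 were 0.534 (0.497 to 0.57) and 0.563 (0.529 to 0.596). The treated shares were 0.473 (0.435 to 0.511) and 0.470 (0.441 to 0.4998). Both treated libraries lay below both untreated ones, although the interval of the first untreated library overlapped those of both treated ones. In clone 203b both untreated libraries had a Cdh1 share of 0.696, and the single treated library had 0.621 (0.59 to 0.651). Clone means changed by -0.134 (339), -0.0769 (267) and -0.0742 (203b), with a mean of -0.0951 ± 0.0339 (SD, n = 3 clones).

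**Figure D1:**
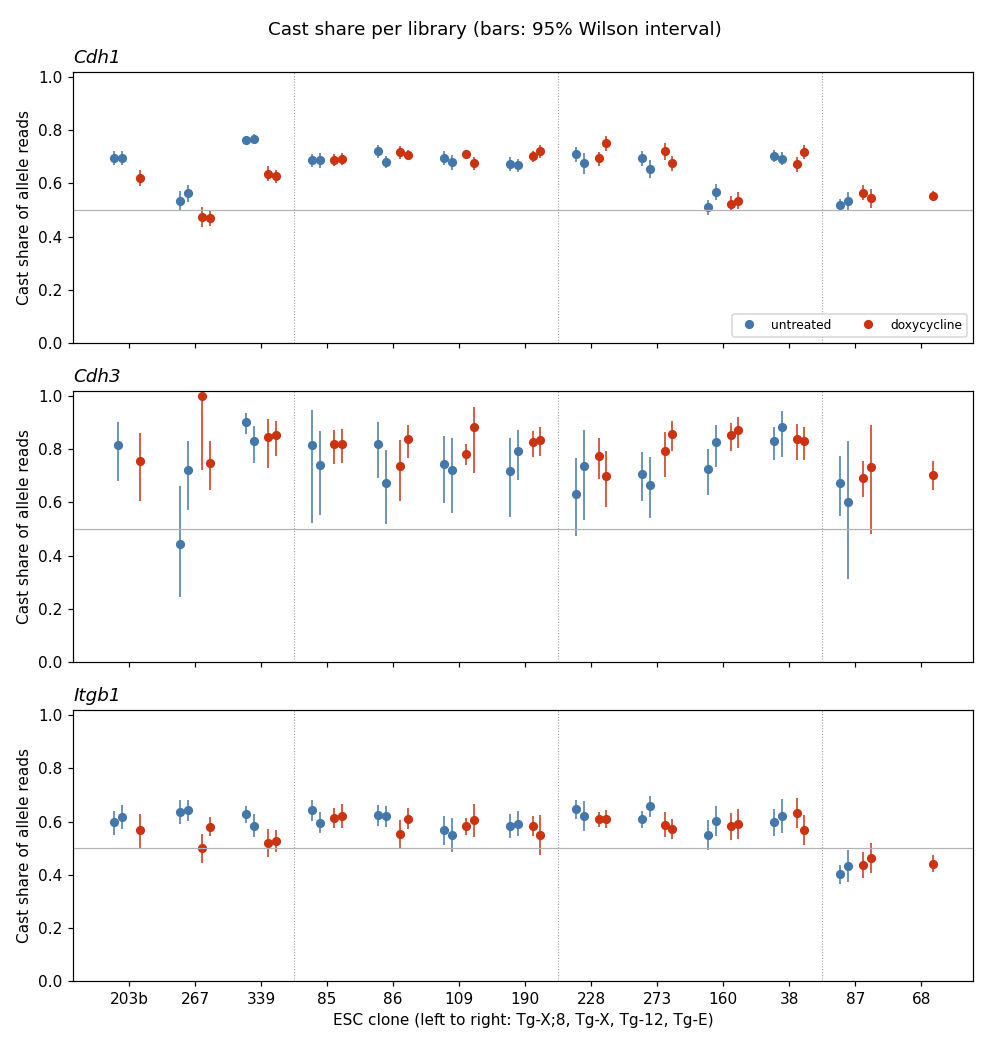
Cast share (fraction of allele-specific reads) of Cdh1, Cdh3 and Itgb1 in each ESC library, by clone, with blue points for untreated and red points for doxycycline-treated libraries and bars for the 95% Wilson interval. Cdh1 in clone 339 moves from 0.763 and 0.768 to 0.636 and 0.626, while the wide bars of Cdh3 show how few reads it had.

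The total level of Cdh1 did not follow the share in every clone. In clone 339 it was 729 and 699.6 CPM untreated and 450.0 and 406 CPM treated. In clone 267 it was 400.3 and 409 CPM untreated and 328 and 296 CPM treated. In clone 203b it was 531 and 555 CPM untreated and 577 CPM in the treated library. The treated libraries were thus below the untreated ones in clones 339 and 267 and above them in clone 203b.

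Counting the alleles apart shows which of them moved. In clone 339 the Cast reads of Cdh1, as reads-per-million of all allele-specific reads, were 858 untreated and 439 treated, and the 129 reads were 263 and 256. In clone 267 the Cast reads were 339.9 and 238, and the 129 reads 279.7 and 266. In clone 203b the Cast reads were 593 and 609, whereas the 129 reads were 259.7 untreated and 371 treated. The lower Cdh1 share in clones 339 and 267 thus came with fewer Cast reads. In clone 203b it came with more 129 reads, in a single treated library. That library had 3645880 counted and 991212 allele-specific reads. The untreated libraries of clone 203b had fewer counted reads per allele-specific read (4687291 to 1543449 and 4147345 to 1320959). This difference between libraries and the treatment cannot be told apart in clone 203b.

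Itgb1 had a lower Cast share upon doxycycline in all 3 Tg-X;8 clones. In clone 267 the untreated shares were 0.638 and 0.643, and the treated shares were 0.5 (0.446 to 0.554) and 0.581 (0.544 to 0.617). In clone 339 they were 0.627 and 0.585 untreated and 0.520 and 0.528 treated. In clone 203b they were 0.596 and 0.619 untreated and 0.567 (0.501 to 0.63) in the treated library. Every treated library lay below both untreated libraries of its clone, although the treated interval of clone 203b included both untreated shares. The mean change over the clones was -0.0742 ± 0.0303 (SD, n = 3 clones).

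The total level of Itgb1 was lower in each of these clones as well. It was 291 and 306 CPM untreated and 212 CPM treated in clone 203b. It was 364 and 408 CPM untreated and 253 and 304 CPM treated in clone 267. In clone 339 it was 334 and 313 CPM untreated and 247 and 243 CPM treated. The groups did not overlap within a clone, but each held few libraries. The share of all genes that did the same was not counted, so nothing is read from this. As reads-per-million of all allele-specific reads, Cast reads of Itgb1 changed by -0.54, -0.66 and -0.72 (log2) in clones 203b, 267 and 339. The 129 reads changed by -0.30, -0.08 and -0.23 in the same order.

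**Figure D2:**
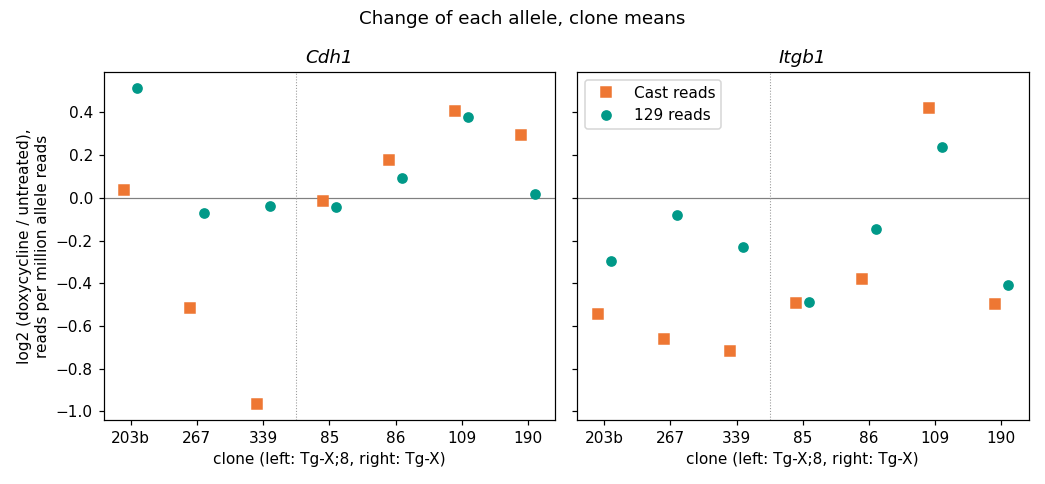
Change of the Cast reads (orange squares) and 129 reads (green circles) of Cdh1 and Itgb1 upon doxycycline, as the log2 ratio of clone means in reads-per-million of allele-specific reads, for the 3 Tg-X;8 clones (left of the dotted line) and the 4 Tg-X clones (right). The Cast reads of Itgb1 lie at -0.54 to -0.72 in the Tg-X;8 clones, and those of Cdh1 at -0.97 in clone 339 but at 0.04 in clone 203b.

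Cdh3 had too few allele-specific reads for its share to be followed in most Tg-X;8 libraries. In clone 339 it was 0.905 (0.857 to 0.938) and 0.830 (0.750 to 0.889) untreated and 0.845 and 0.855 treated. In clone 267 the untreated shares were 0.444 from 18 reads and 0.721 from 43 reads, and the treated shares were 1 from 10 reads and 0.75 from 84 reads. In clone 203b the only untreated share was 0.818 and the treated share was 0.756. No fall of the Cdh3 share was detectable at this depth. Its total level was 42.1 and 38.8 CPM untreated and 31.9 and 24.9 CPM treated in clone 339, and 27.4 and 27.0 CPM untreated and 20.4 and 20.5 CPM treated in clone 267. In clone 203b it was 26.5 CPM untreated and 28.5 CPM treated.

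The change of share over distal chromosome 8 in the same libraries is given as background. Of genes with at least 50 allele-specific reads in every library of the clone, the Cast share was at least 0.1 lower upon doxycycline in 9.7% of 165 genes in clone 203b, 5.66% of 159 genes in clone 267 and 2.46% of 203 genes in clone 339. Of the 6 changes of Cdh1 and Itgb1 in these clones, 2 passed that limit, Cdh1 in clone 339 and Itgb1 in clone 267. This contrast chose the genes, so nothing is read from that count. All these genes together had median changes of -0.0218 (203b), -0.0137 (267) and -0.0199 (339).

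The nearest genes to Cdh1 that were listed in every Tg-X;8 library were Tango6, Chtf8 and Sntb2, at 79.7, 281 and 332 kb between starts. The Cast share of Tango6 was 0.728 untreated and 0.612 treated in clone 203b, 0.744 and 0.789 in clone 267, and 0.830 and 0.764 in clone 339. Chtf8 had 0.608 and 0.683 in clone 203b, 0.665 and 0.676 in clone 267, and 0.812 and 0.767 in clone 339. Sntb2 had 0.604 and 0.65, 0.589 and 0.621, and 0.721 and 0.648 in the same order. Both were thus higher upon doxycycline in clones 203b and 267 and lower in clone 339. No read minimum was applied to these named genes and no interval is given, so small changes can be counting error. Prmt7, the gene after Tango6 in distance from Cdh3, stood at 0.7496 and 0.714, at 0.689 and 0.6125, and at 0.713 and 0.730 in these clones. Over all genes within 1 Mb of Cdh1 with at least 50 reads, the median change was -0.02 in clone 203b (9 genes), -0.0107 in clone 267 (9 genes) and -0.0196 in clone 339 (18 genes). The lowest change of a neighbour was -0.106 (203b), -0.0828 (267) and -0.114 (339), so a neighbour had a lower change than Cdh1 in clones 203b and 267. Itgb1 had a single listed gene within 1 Mb, which was absent from at least 1 Tg-X;8 library.

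The untreated share of Cdh1 differed between clones before any doxycycline. It was highest in clone 339 and lay between 0.672 and 0.701 in clones 86, 38, 203b, 228, 109, 85, 273 and 190. It was 0.548 in clone 267, 0.538 in clone 160 and 0.526 in clone 87. Along this order, the libraries of neighbouring clones overlapped except between 339 and 86 and between 190 and 267. Clone 87 has a distal chromosome 8 near 0.5 throughout, but clones 267 and 160 do not.

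Against the mean of the 4 Tg-X clones, the Cdh1 share differed by -0.139 in clone 267, the lowest of 149 distal genes, of which 2 were at least 0.1 lower. In clone 160 it differed by -0.149, and Cdh1 was the 1 gene of 153 that was at least 0.1 lower. These places are a description, since the shares of the clones were in view when the genes were chosen. Genes within 1 Mb of Cdh1 had a median share of 0.65 in clone 267 (9 genes) and 0.663 in clone 160 (13 genes). In both clones, then, the low share was seen at Cdh1 and not in the median of its neighbourhood. These 2 clones, which carry the Tsix-Stop allele, also had the most Xist reads from the 129 allele before treatment. Clone 267 had 221 and 231 such reads and clone 160 had 465 and 188, while no other untreated ESC library that lists Xist had more than 16. The part of this in the Cdh1 share was not tested.

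In clone 339 the untreated Cdh1 share was 0.0785 above the mean of the Tg-X clones, the 6th highest of 153 genes. Genes within 1 Mb with at least 50 reads had a median share of 0.725 there (18 genes), and of 0.629 to 0.654 in the 4 Tg-X clones. The latter rest on 8 to 11 genes, as the read minimum was applied per clone, so the sets of genes differ. The untreated total level of Cdh1 was also highest in clone 339, at 714 CPM, and its libraries did not overlap those of the next clone, 85, at 579 CPM. The lowest levels were 305 CPM in clones 87 and 273, which did not differ beyond their spread.

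**Figure D3:**
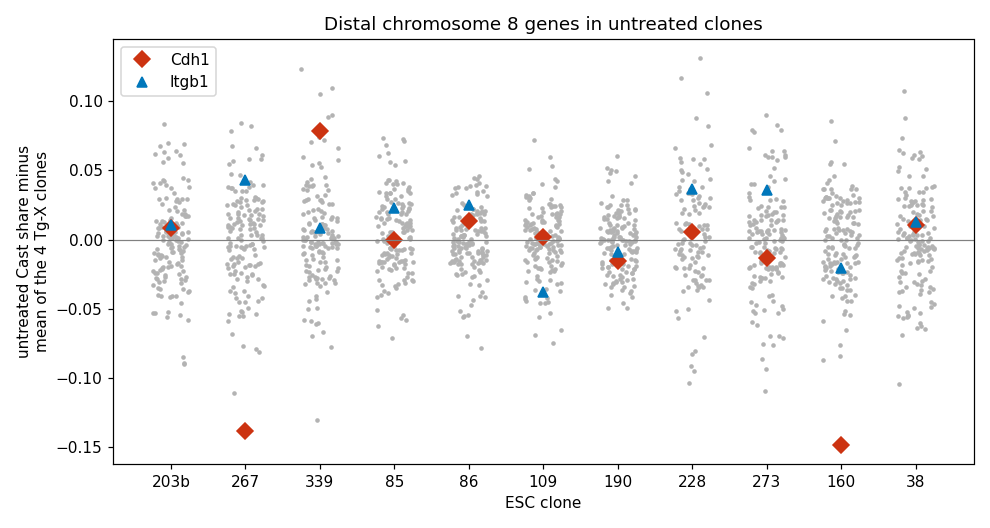
Untreated Cast share minus the mean of the 4 Tg-X clones for genes of chromosome 8 distal to 70 Mb with at least 50 allele-specific reads (grey), by ESC clone, with Cdh1 (red diamonds) and Itgb1 (blue triangles) marked. Cdh1 is the lowest point in clone 267 (-0.139) and in clone 160 (-0.149), and the Tg-X clones lie closer to 0 because they form the mean.

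Itgb1 did not share this pattern. Its untreated share lay between 0.559 and 0.641 in all clones but clone 87, where it was 0.401 and 0.431 and below the other clones. In clone 68 the treated share was 0.442. With the distal median near 0.5 in these 2 clones, Itgb1 gave more 129 than Cast reads, and Cdh1 slightly more Cast than 129 reads. The untreated total level of Itgb1 ranged from 174 CPM in clone 87 to 437 CPM in clone 228. Cdh3 was lowest in clone 87, at 9.58 and 9.40 CPM, with no overlap with the next clone, 86, at 20.2 and 24.1 CPM.

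In untreated cells the 4 Tg-X clones were tested against clones 87, 228, 273, 160 and 38, whose listed karyotypes have no t(X;8). The chromosome 8 shares of clone 160 go against that, as they had the pattern of the t(X;8) clones. Distal to 70 Mb, untreated clones 228, 273 and 38 also had median Cast shares of 0.656 to 0.667, against 0.651 to 0.671 in the t(X;8) clones. Of the comparison clones, only clone 87 lacked this Cast excess (0.495 and 0.489 untreated). The test of Tg-X against these clones therefore cannot read the effect of an extra Cast copy. The mean Cast share of Cdh1 was 0.687 ± 0.0119 (SD, n = 4 clones) against 0.626 ± 0.0861 (n = 5), and the clones overlapped (exact two-sided permutation test of clones, p = 0.333). Itgb1 had 0.597 ± 0.0299 against 0.574 ± 0.0912 (p = 0.857, exact permutation test) and Cdh3 0.754 ± 0.0194 against 0.728 ± 0.0882 (p = 0.603, exact permutation test). These 3 p-values are not adjusted. The smallest p this design allows is 0.00794. Without clone 160 the difference in the Cdh1 share was 0.0395 (exact permutation test, p = 0.6). The total level of Cdh1 was 0.44 ± 0.17 (SE) higher in Tg-X clones on the log2 scale (edgeR, adjusted p = 1). The background was 0% of 5069 genes called by edgeR, with 182 genes at an unadjusted p under 0.05 and 5 genes called by DESeq2.

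Upon doxycycline the Cdh1 share stayed within a narrow range in the Tg-X clones. It was 0.669 to 0.720 in the 8 untreated libraries (median 0.684) and 0.676 to 0.722 in the 8 treated ones (median 0.705). The log2 ratio of Cast to 129 reads changed by 0.11 ± 0.06 (SE; edgeR quasi-likelihood test, adjusted p = 0.429). For Itgb1 the share was 0.55 to 0.643 untreated and 0.549 to 0.623 treated, with a change of -0.04 ± 0.08 (edgeR, adjusted p = 0.906). For Cdh3 the change was 0.51 ± 0.23 (edgeR, adjusted p = 0.307), with a higher clone mean upon doxycycline in all 4 clones. An exact permutation of treatment within clones gave an unadjusted p = 0.037 for the Cdh3 share. The polymorphisms behind a Cdh3 share can differ between libraries. None of the 3 genes was called in this test, which called 3.6% of 5770 genes.

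The total level moved in the Tg-X clones. Cdh3 rose from 20.2 to 28.8 CPM in untreated libraries (median 25.6) to 31.3 to 69.7 CPM in treated libraries (median 43.7), and the groups did not overlap. Its log2 change was 0.86 ± 0.13 (SE; edgeR, adjusted p = 5.09e-05), and it was higher in all 4 clones. Itgb1 fell from a median of 319 CPM (204 to 448) to 258 CPM (145 to 306), a log2 change of -0.34 ± 0.12 (edgeR, adjusted p = 0.0291), with overlapping groups. It was lower in clones 85, 86 and 190 and higher in clone 109. Without clone 85, 86 or 190 in turn the call for Itgb1 was lost (adjusted p = 0.169, 0.0982 and 0.111 in edgeR), as it was without replicate 2 (adjusted p = 0.338). Cdh1 changed by 0.14 ± 0.07 and was not called (edgeR, adjusted p = 0.134).

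In this comparison 40.8% of 5770 genes were called, 20.9% higher and 19.9% lower, so a call by itself was common. In each Tg-X clone a treated library had more counted reads per allele-specific read than the untreated ones. The first treated library of clone 109 had 11541642 counted and 3193405 allele-specific reads, its first untreated one 4408493 and 1457823. Such a difference is partly confounded with treatment, and its part was not tested. The remaining treated libraries had Cdh3 at 31.3 (109), 69.7 (190), 45.5 (85) and 39.9 CPM (86), above all untreated Tg-X libraries. The log2 change of Itgb1 was 0.16 in clone 109 and -0.32 to -0.60 in the other Tg-X clones, and -0.40 to -0.49 in the Tg-X;8 clones. The Itgb1 share changed by -0.0397 (clone 86), -0.0215 (190), -0.000971 (85) and 0.0347 (109), beside -0.0408 to -0.1 in the Tg-X;8 clones. In clone 273, a Tg-12 clone, it changed by -0.0532, with a log2 change of the level of -0.38. A lower Itgb1 share was thus also seen outside the Tg-X;8 clones. Cdh3 was 0.75 to 1.11 higher on the log2 scale in each Tg-X clone, against -0.51, -0.41 and 0.11 in Tg-X;8 clones 339, 267 and 203b.

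**Figure D4:**
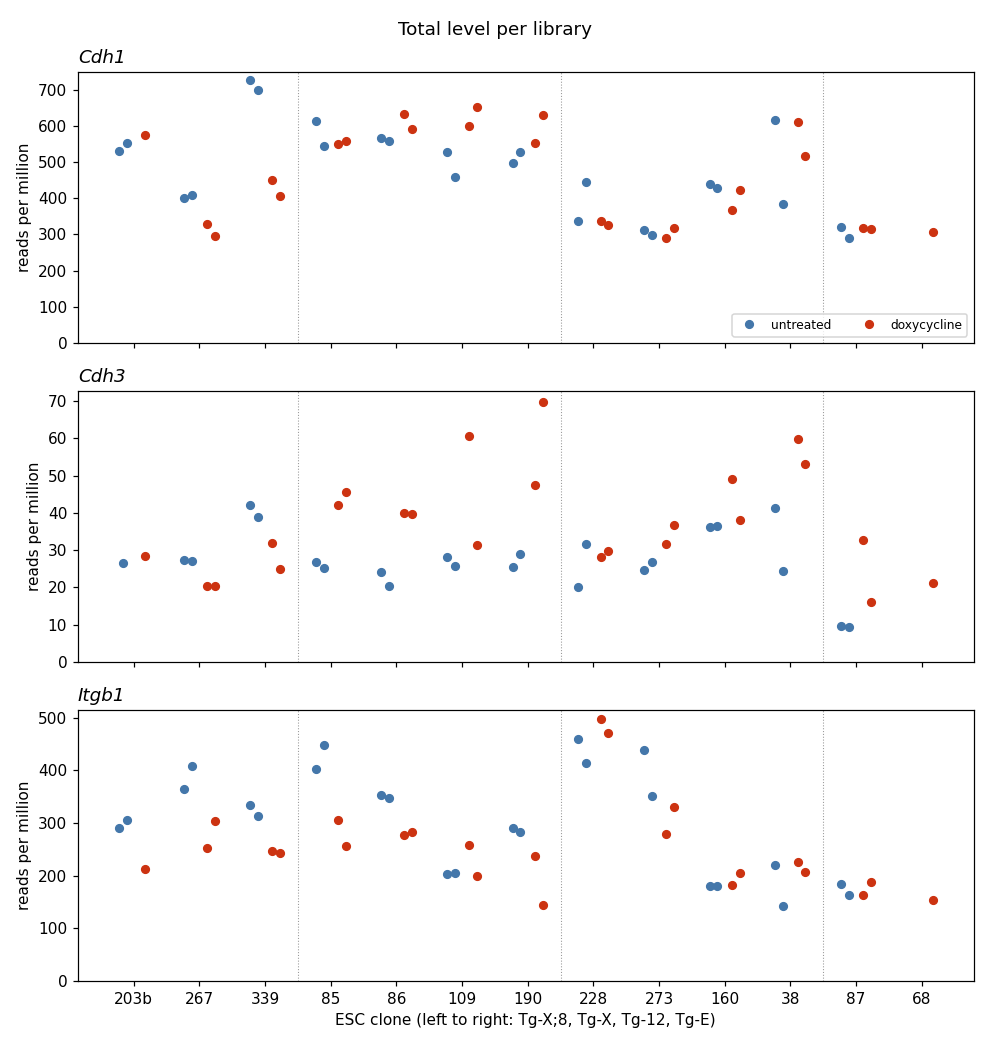
Total level (CPM over listed genes) of Cdh1, Cdh3 and Itgb1 in each ESC library, by clone, with blue points for untreated and red points for doxycycline-treated libraries. Cdh3 lies higher in the treated libraries of all 4 Tg-X clones, and Cdh1 in clone 339 goes from 729 and 699.6 to 450.0 and 406.

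Genes that work with these 3 proteins were followed by lists, beside 20.9% of 5770 genes called higher and 19.9% called lower upon doxycycline in Tg-X clones. Of 13 measured integrin activators and adhesion adaptors, 8 rose and 1 fell upon doxycycline in Tg-X clones, with a median log2 change of 0.32 against 0.01 for all genes. Among them Tln1 (talin, which activates integrins) rose by 0.82 and Itgb1bp1 (which binds the beta1 tail) fell by 0.53. Bcar1, an adaptor gene that also lies on chromosome 8, rose by 0.49. Of 11 measured cadherin partners 4 rose, led by Jup (plakoglobin) at 1.10, with Pard3 of chromosome 8 at 0.34. Of 6 measured ligands of beta1 integrins 5 rose, among them Lama5 at 1.05 and Lama1 at 0.79. The alpha chains Itga5 and Itga6 rose by 0.44 and 0.24, and Itgb5, another beta chain, rose by 0.52. No call was made for the 1 measured other cadherin or the 1 measured repressor of E-cadherin. Of 10 markers of pluripotent ESCs 4 rose and 2 fell, the 1 measured glia and neural progenitor marker rose, and no neuron, endoderm or fibroblast marker was listed in every library. The part of any shift in cell state in these values was not tested.

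In clones 87, 228, 273, 160 and 38 edgeR called none of the 3 genes, and DESeq2 called the total level of Cdh3. The share of Cdh1 changed by 0.09 ± 0.06, that of Itgb1 by -0.08 ± 0.08 and that of Cdh3 by 0.57 ± 0.19 (SE) as log2 ratios of Cast to 129 reads, with adjusted p = 0.9503, 0.975 and 0.575 in edgeR. The exact permutation within clones gave an unadjusted p = 0.0121 for the Cdh3 share. The background was 0% of 5042 genes called by edgeR and by DESeq2, with 319 genes at an unadjusted p under 0.05 in edgeR. The total level of Cdh3 was higher in all 5 clones, by 0.59 ± 0.14 on the log2 scale (edgeR, adjusted p = 0.145). In DESeq2 its adjusted p was 0.0166. Cdh1 changed by -0.04 ± 0.06 and Itgb1 by 0.02 ± 0.09, where 0.0198% of 5042 genes were called. In none of the adhesion lists did edgeR call a gene in these clones. The difference between Tg-X and these clones was not tested.

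The 4 libraries labelled as neurons, from lines 20 and 38 of clone 55 at day 14, held cells that still expressed ESC genes. All 10 ESC markers were listed, with a summed level of 1910 to 3753 CPM against 8857 to 11445 CPM in the 4 ESC libraries of line 38. Neuron markers summed to 111 to 883 CPM against 45.9 to 69.0 CPM, and Stmn2 was listed in none of the 4 libraries. The untreated library of line 38 was the one with the highest neuron markers. Glia and neural progenitor markers summed to 154 to 837 CPM against 51.5 to 143 CPM, endoderm markers to 42.6 to 120 CPM with none listed in the ESCs, and fibroblast markers to 55.9 to 346 CPM against 23.5 to 34.4 CPM. The part of such cells in the values that follow was not tested. The neuron libraries had 25057343 to 32336068 counted reads and 11818 to 13036 listed genes. The ESC libraries of line 38 had 3493026 to 7159892 reads and 7543 to 8395 genes. A gene with too few allele-specific reads is not listed and adds nothing to a sum, so these sums also depend on depth. ESC libraries of line 20 were not analysed here. In such mixtures fewer cells of a type and less RNA per cell cannot be told apart.

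Itgb1 was higher in these libraries than in the ESCs, at 448, 429, 611 and 679 CPM against 142 to 227 CPM. The log2 difference was 1.54 ± 0.20 (SE; edgeR, adjusted p = 0.000664), and the groups did not overlap. Cdh3 stood at 41.1, 81.7, 40.3 and 99.3 CPM against 24.3 to 59.8 CPM, a difference of 0.59 ± 0.17 (edgeR, adjusted p = 0.0296), with overlapping groups. The Cdh3 call was lost with line 38 alone (adjusted p = 0.0753 in edgeR) and without any of 4 single libraries, both treated neuron libraries and both treated ESC libraries (adjusted p up to 0.118). Cdh1 stood at 627, 593, 745 and 875 CPM against 385 to 617 CPM and was not called, at 0.51 ± 0.18 (edgeR, adjusted p = 0.0574), although DESeq2 called it (adjusted p = 0.0264), as did edgeR without the treated library of line 20 (adjusted p = 0.0454) or the first untreated ESC library (adjusted p = 0.0464). In this comparison 34.4% of 6777 genes were called, 16.5% higher in the neuron libraries. The Cast share of Cdh3 was 0.612 to 0.637 in the neuron libraries and 0.831 to 0.885 in the ESCs of line 38, where it rests on far fewer reads. That of Cdh1 was 0.654 to 0.676 and 0.673 to 0.719, and that of Itgb1 was 0.631 to 0.648 and 0.568 to 0.633.

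Counts for the listed partners stand beside 16.5% of 6777 genes called higher in the neuron libraries, and 1214 of the 6777 called lower. Among these partners, 4 of 8 measured ligands were higher. Col4a2 and Col4a1, both on chromosome 8, were at 5.09 and 4.87 on the log2 scale. Of 14 measured adaptors 5 were higher and 1 lower, with Bcar1 higher by 1.91. Of 11 measured cadherin partners 6 were higher, led by Tjp1 and Vcl at 2.01 and 1.74. Of 3 measured alpha chains Itga3 was higher, by 2.46. Of 2 measured repressors of E-cadherin 1, Klf8, was lower, at -1.32.

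The genes whose untreated level over the 12 ESC clones was most like that of each member were found by Pearson correlation of log2 CPM. For Itgb1 they were Cfl2, Slc35f2 and Plod2 (r = 0.973, 0.955 and 0.953). For Cdh1 they were Npepl1, Mt2 and Glb1 (r = 0.867, 0.836 and 0.813), of which Mt2 lies on chromosome 8. For Cdh3 they were Tango6, Kars and Chtf8 (r = 0.929, 0.925 and 0.891), all on chromosome 8, and Tango6 and Chtf8 are the neighbours described above. Cdh1 and Itgb1 had r = 0.121 with each other. The points share clones and karyotypes, and each is the highest of all genes compared, 4979 for Cdh1 and Itgb1 and 4991 for Cdh3.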

How the data were processed

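For each library the authors deposited a gene list with counts of Cast and 129 reads and of all reads per gene (HTSeq 0.6.1), neither normalized, and a fraction, the Cast reads over all allele-specific reads. The largest difference between this deposited fraction and the ratio of the counts was 5e-07. Per the study's methods, single 43 bp reads were aligned with TopHat2 2.0.6 to 129/Sv and Cast/Ei genomes built on mm10 (GRCm38), the best unique alignment was kept, and a minimum of 5 reads per polymorphism (above 8 for a gene with 1 polymorphism) was applied. Genes under this limit are missing from a library, and the polymorphisms behind a Cdh3 value can differ between libraries. The strand setting of the counting is not given in the sources used here.

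Of 60 libraries 52 were assigned to groups by their labels, and 8 of clone 292 were not, as their cell type labels conflict. Genes listed in every library of a comparison were tested, and all 3 members passed. Allele changes were tested with edgeR 4.0.16 (R 4.3.3) on 2 columns per library, with terms for the library and for clone by allele and the treatment by allele term tested. Total counts were tested with TMM scaling and clone (or treatment, for neurons) as covariate, and untreated clones as summed counts. All are quasi-likelihood tests with Benjamini-Hochberg adjustment over all genes tested, at 0.05. DESeq2 1.42.0, other scalings, a minimum mean of 50 reads, a replicate block and left-out clones or replicates were alternatives. The fits were tested on simulated data. Shares and permutations were computed in Python 3.11.15 with scipy 1.17.1.

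Replicate libraries of a group differed by more than counting noise (chi-square per degree of freedom 1.65 or more).

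Genes were named by rule: the members in full, up to 4 per list by smallest adjusted p with those on chromosome 8, the 3 nearest neighbours, and the 3 most alike genes. The members and lists were chosen with earlier results of these data known.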

Additional observations from a re-analysis of the deposited data

Results flagged for a closer look

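The first untreated library of clone 38 had a Cdh1 level of 617 CPM, far above the next highest untreated library outside the t(X;8) clones, at 444 CPM. Its distance was 0.527 of the range of the 10 libraries, past the limit of 0.466. The second untreated library of clone 38 had 385 CPM, and the treated ones 611 and 517 CPM. It was the 1 library that stood apart in 36 groups of values tested, and chance flags about 1 in 20 such groups.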

How the results depend on the processing

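Of 329 recomputed values, 274 kept their direction and their side of the threshold, or stayed within the limits set for counts and untested values. Of the others, 23 reversed, 17 moved, 9 were weaker and 6 were stronger. Causes were not tested. DESeq2 gave 0.59 for total Cdh3 in non-translocated clones (called, with 36 genes in all), 5 genes between untreated clones, and 0.51 for Cdh1 in neurons (called). Line 38 alone gave 0.68 for Cdh3 in neurons (not called) and 1312 genes. Permuting the Cdh3 share within clones gave changes of 0.064 in Tg-X and 0.0669 in non-translocated clones, past an unadjusted threshold. Against clones labelled chromosome 12 alone, a comparison chosen after seeing the data, the untreated Tg-X difference was -0.21 for total Itgb1, with 10 genes called, and in share -0.00115 for Cdh1 and -0.0284 for Itgb1.

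Leaving out 1 clone, replicate or library gave the following ranges. Upon doxycycline in Tg-X clones, allelic Itgb1 ran from -0.12 to 0.0396 with 51 to 199 genes called, and total Itgb1 from -0.57 to -0.17 with 946 to 2520 genes. In non-translocated clones, allelic Itgb1 ran from -0.19 to 0.0208 with 0 to 1 genes, total Cdh1 from -0.0904 to 0.016, and total Itgb1 from -0.14 to 0.18 with 0 to 10 genes. Between untreated clones, total Cdh3 ran from -0.24 to 0.11 and total Itgb1 from -0.059 to 0.38 with 0 to 11 genes, the Cdh3 share from -0.0106 to 0.0622 and the Itgb1 share from -0.0162 to 0.0435. In neurons, Cdh1 ran from 0.38 to 0.61 and Cdh3 from 0.48 to 0.74, with 1265 to 2530 genes. The change of the Cdh3 share in Tg-X;8 clones ran from -0.03998 without clone 267 to 0.137 without clone 203b. Less the median change of genes within 1 Mb, chosen after seeing the data, the Cdh1 change was -0.0783.

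The replicate numbers were not used to pair the libraries in the main tests. The correlation of replicate differences in expression was over 0.1 in most clones and negative in clones 160, 273 and 85 (-0.56 to 0.665). With a replicate block no call for a member changed: in Tg-X clones total Cdh3 changed by 0.84 and total Itgb1 by -0.36 (edgeR, adjusted p = 0.0311), and 2206 genes were called. Depth limits Cdh3 shares most.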

Other observations

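The 8 libraries of clone 292, which were put in no group, had Cdh1 at Cast shares of 0.623 to 0.717 (median 0.657) and 464 to 648 CPM (median 506). Itgb1 had shares of 0.572 to 0.653 (median 0.635) and 184 to 549 CPM (median 366). Cdh3 had shares of 0.608 to 0.82 (median 0.739) and 33.3 to 69.7 CPM (median 53.1).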
